A study of Mus musculus with 5 samples.

Results

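The clustered protocadherin genes were examined for DNA methylation in mouse cells with RRBS, in which a restriction enzyme picks out CpG-rich fragments and bisulfite marks the unmethylated cytosines in them. The members were the CpG islands (CGIs) and the shores beside them that lie in the stretch of chromosome 18 holding the 3 protocadherin clusters (mm10; outermost regions 36929567 to 37809485) and that all 5 libraries list. This gave 56 regions, 18 islands and 38 shores, out of 30910 islands and shores listed in all 5 libraries. The choice used position only, not methylation. By the nearest gene, 22 regions fell to the Pcdha cluster, 7 to Pcdhb and 27 to Pcdhg. A pair of further regions in the window, an island and a shore at Pcdha2, was listed in pESC-PGCLC alone, at 0%, and was left out.

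All cells were of the C57BL6 strain, and each group had 1 library, so the differences below compare pairs of libraries, without replicates and without tests. The stem cell libraries were a female embryonic stem cell line (female ESC) and a parthenogenetic one (pESC), whose genome comes from an egg without a sperm; each is 1 line, grown on feeder cells in serum and LIF. Primordial germ cells (PGC), the fetal precursors of eggs and sperm, were taken from fetal gonads at E12.5 with beads against the surface marker SSEA1; the sex of the fetuses is not given in the labels. ESC-PGCLC and pESC-PGCLC are germ cell-like cells induced from those lines: 46 h in EpiLC medium, then 4 days with BMP4, LIF, SCF and EGF, and a sort for CD61 and SSEA1. As a check of the labels, islands of 8 imprinted genes methylated on the maternal copy had medians of 58.7% in pESC and 56.1% in pESC-PGCLC, against 9.95% in female ESC and 7.69% in ESC-PGCLC, and pESC exceeded female ESC at all 8. Female ESC, with a copy from each parent, ranged from only 1.35% at Plagl1 to 36.9% at Peg13. What these low levels say of that line and its derivatives was not tested. In PGC, a cell type known to erase imprints, the median was 48.2%. What the PGC value says of the purity or stage of that library was not tested.

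Clustered protocadherins are cadherin-type adhesion proteins with which neurons tell their own branches from those of other cells. Each variable first exon has a promoter of its own, and a neuron uses a few of them, a choice that involves DNA methylation of the promoter, set in the early embryo largely by Dnmt3b, and binding of the insulator protein CTCF. In the Pcdha and Pcdhg clusters each variable exon is spliced to shared constant exons at the far end, while Pcdhb genes have no constant exons. The C-type genes (Pcdhac1, Pcdhac2, Pcdhgc3, Pcdhgc4 and Pcdhgc5) are used more uniformly between neurons. Early germ cells erase most of their DNA methylation as they enter the gonad.

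The regions did not cover the family evenly. Of 58 annotated genes, 27 had a region within 3000 bp of their start: 9 of 14 in Pcdha, 5 of 22 in Pcdhb and 13 of 22 in Pcdhg. All 7 Pcdhgb genes had one, whereas in the Pcdhb cluster only Pcdhb16, Pcdhb17, Pcdhb18, Pcdhb20 and Pcdhb22 did, and Pcdhgc4 and Pcdhgc5 had none. Each region carries the name of the gene whose start is nearest. For 3 regions that start is over 3000 bp away: an island and a shore named after Pcdha7 overlap the pseudogene Gm36858, and an island named after Pcdhga1 overlaps Taf7, a gene for a subunit of the general transcription factor TFIID. In 3 pairs of overlapping regions, at Pcdha2, Pcdhgb6 and Pcdhga12, the levels were equal in all 5 libraries, so these are not separate measurements.

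Protocadherin regions were more methylated than islands and shores at large. Taking the mean of the 5 libraries for each region, the median was 7.68% over the 56 members and 2.23% over all 30910 regions. For islands the medians were 3.34% and 1.56%, and for shores 13.1% and 4.39%. A mean of at least 20% was found at 17 of 56 members, or 30.4%, against 13.6% of all regions. At the other end, 18 members had a mean under 5%, or 32.1%, against 71.1% of all regions. Levels at cytosines outside CpG can come from unconverted bases or from methylation, which cannot be told apart here. In the CHH context their medians were 0.599% (pESC) to 0.743% (ESC-PGCLC) at the members, against 0.567% and 0.722% at all regions. A bulk library averages over cells and alleles, so a level of 40% at a region may be methylation of some molecules or part of the CpGs of each; these cannot be told apart.

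**Figure D1:**
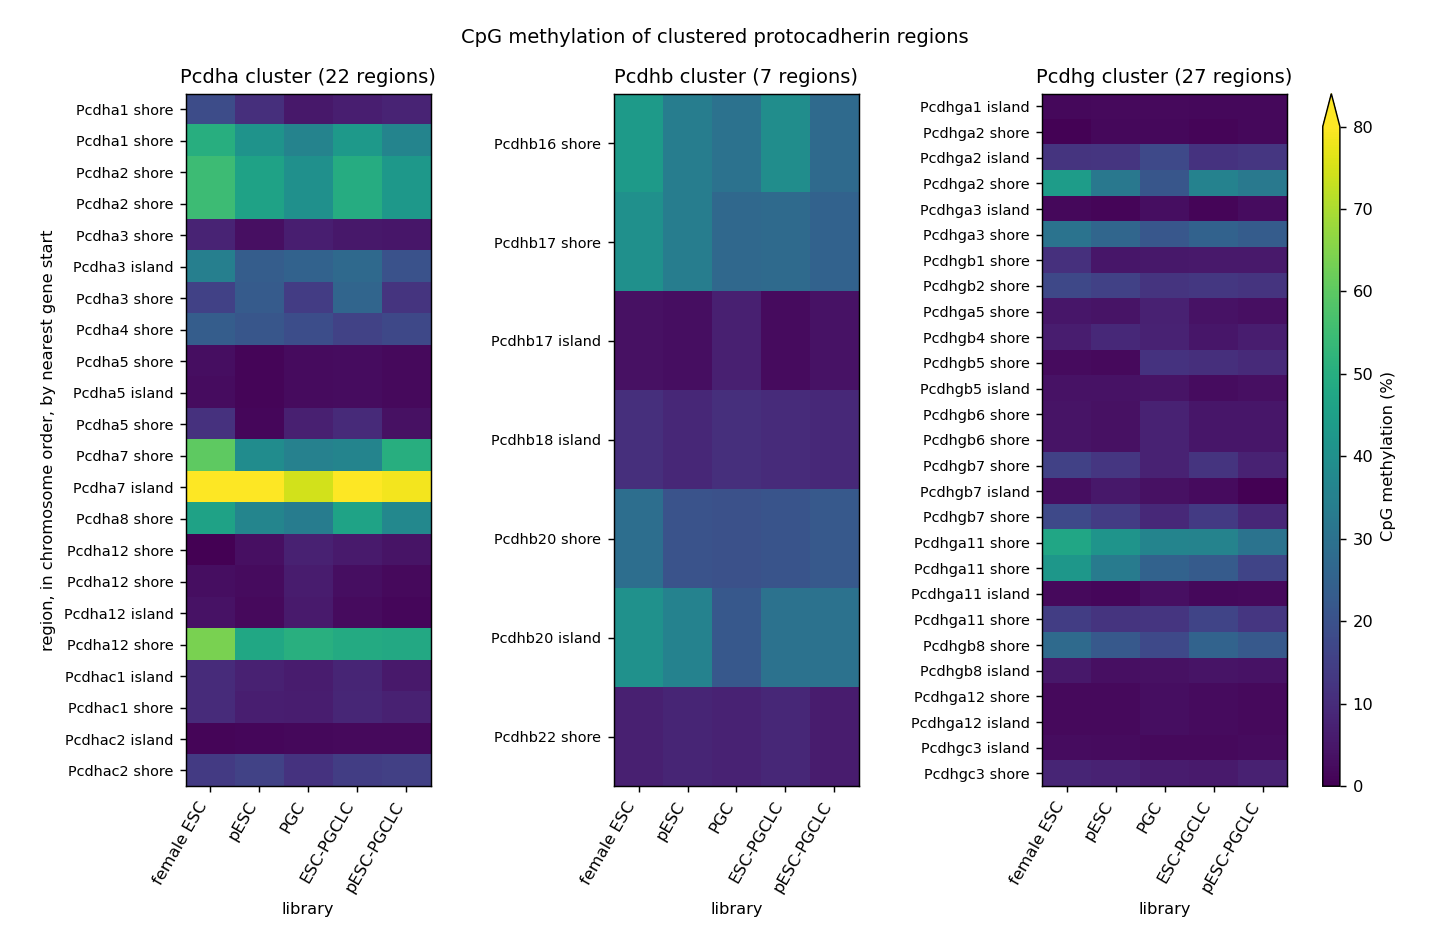
CpG methylation (colour, in percent) of the 56 regions, in chromosome order within each cluster (rows, named by the nearest gene start), in the 5 libraries (columns). Bright rows such as the island named after Pcdha7 (74.5% to 83.6%) stay bright across libraries, and dark rows such as the Pcdhgc3 island stay under 3%.

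Medians differed between the 3 clusters, though the gap between Pcdha and Pcdhg depends on which regions are counted. Medians of the region means were 11.9% in Pcdha, 22.5% in Pcdhb and 6.37% in Pcdhg, and regions with a mean of at least 20% numbered 8 of 22, 4 of 7 and 5 of 27. The Pcdha median rests partly on repeated and distant regions: it was 9.76% with equal overlapping regions counted once and 8.76% without the 2 regions far from a start. Each kind was left out alone here. With both kinds left out in each cluster, the Pcdha and Pcdhg medians lie closer together. By isoform class the medians were 18.8% for alternate Pcdha genes (18 regions), 22.5% for Pcdhb genes (7), 4.67% for Pcdhga genes (13), 6.63% for Pcdhgb genes (12) and 7.23% for C-type genes (6). The Pcdhga value became 8.94% when the equal pair at Pcdhga12 was counted once, and the same without the island at Taf7. With both kinds left out of each class, the alternate Pcdha median falls below that of Pcdhga. The order of these classes thus depends on the regions counted. No C-type region reached 20% in any library.

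The alternate Pcdha genes held the most methylated regions. The island named after Pcdha7 (chromosome 18, 36980149 to 36980458) was at 83.6% in female ESC, 80.4% in pESC, 74.5% in PGC, 79.8% in ESC-PGCLC and 78.5% in pESC-PGCLC. It lies over the pseudogene and not at a protocadherin promoter. The shore downstream of the Pcdha12 start (37022221 to 37024222) was at 63.9% in female ESC, 47.7% in pESC, 50.6% in PGC, 48.9% in ESC-PGCLC and 48.3% in pESC-PGCLC, so female ESC stood apart and the other 4 lay within 3 points. The shores at Pcdha2, equal to each other, were at 54.7%, 46.0%, 40.2%, 49.5% and 42.7% in the same order. The shore over the start of Pcdha8 (36991685 to 36993685) was at 46.2%, 36.4%, 33.6%, 46.4% and 37.3%, with the biparental stem cells and their derivatives high and the other 3 libraries low. Low members of this class were Pcdha5, whose island (36960437 to 36960908) ranged from 1.05% (pESC) to 2.79% (female ESC), and the Pcdha12 island (37020351 to 37020802), from 1.44% (pESC-PGCLC) to 5.84% (PGC). The island and downstream shore of Pcdha12 thus differed by far more than any pair of libraries did at either.

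In the Pcdhb cluster the shore between Pcdhb15 and Pcdhb16 (37475418 to 37477419), which overlaps the end of Pcdhb15, was at 43.5% in female ESC, 33.99% in pESC, 30.3% in PGC, 39.1% in ESC-PGCLC and 27.5% in pESC-PGCLC. Both libraries of the biparental line were above the other 3. The Pcdhb20 island (37505887 to 37506400) was at 40.4%, 35.5%, 22.1%, 30.2% and 30.1% in that order, with the stem cells high, the induced cells between and PGC low. At Pcdhb17 the island (37486534 to 37487214) ranged from 2.20% (ESC-PGCLC) to 6.93% (PGC), while the shore over the gene's start (37484533 to 37486533) ranged from 25.1% (pESC-PGCLC) to 40.3% (female ESC). The Pcdhb18 island (37491259 to 37491518) was nearly even, from 9.04% (pESC) to 10.9% (female ESC), as was the Pcdhb22 shore (37519773 to 37521773), from 6.23% (pESC-PGCLC) to 8.77% (ESC-PGCLC). The remaining Pcdhb region, the shore over the start of Pcdhb20, lay between 19.9% (PGC) and 29.0% (female ESC).

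Of the 9 islands of the Pcdhg cluster 8 had a mean under 5%, as 91.6% of all islands did, the exception being the Pcdhga2 island at 13.2%. All 5 Pcdhg regions with a mean of at least 20% were shores. Upstream of Pcdhga11 a shore (37753687 to 37755687) was at 47.2% in female ESC, 41.6% in pESC, 36.1% in PGC, 35.9% in ESC-PGCLC and 30.5% in pESC-PGCLC, while the island over the Pcdhga11 start (37755688 to 37756215) did not exceed 3.34%. The contrast at Pcdhga2 was similar in size. Its start-covering shore (37667645 to 37669645) was at 0.613% to 1.69%, its island (37669646 to 37669911) at 11.7% to 17.7%, and its downstream shore (37669911 to 37671912) at 21.5% (PGC) to 44.1% (female ESC). At Pcdhga3 the island (37674501 to 37674796) reached 2.96% and the shore after it (37674796 to 37676797) 30.4%. Pcdhgb8, annotated as a transcribed pseudogene, had the only Pcdhgb region with a mean of at least 20%, a shore over its start (37761391 to 37763391) at 17.8% (PGC) to 27.7% (female ESC). The lowest Pcdhgb region by mean was the Pcdhgb7 island (37751792 to 37752055), from 0% in pESC-PGCLC to 5.00% in pESC.

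At C-type genes 2 islands were low and even. The island over the Pcdhac2 start (37143448 to 37144497) was at 1.18% in female ESC, 1.27% in pESC, 1.66% in PGC, 1.90% in ESC-PGCLC and 1.88% in pESC-PGCLC, and that over the Pcdhgc3 start (37805998 to 37807484) at 2.52%, 2.44%, 1.98%, 2.14% and 2.36%. The libraries lay within 1 point of each other at both islands. The Pcdhac1 island (37089892 to 37090399) was higher, at 9.71%, 7.22%, 6.23%, 8.17% and 5.60%. Shores of the same genes lay between 5.87% (Pcdhgc3, ESC-PGCLC) and 15.6% (Pcdhac2, pESC).

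Position relative to the gene start went with level in part. Directions here take the genes as running toward higher coordinates, which the shared ends of the Pcdha and Pcdhg genes show and which is background knowledge for Pcdhb. The 20 regions that cover a start had a median of 6.63%, and the 32 that lie wholly downstream had 11.3%. Of 4 upstream regions, the 3 shores had means between 28.0% and 38.2%, and the island at Taf7 had 1.85%. Islands over a start had a median of 2.18% (4 regions) and downstream islands 3.91% (13), and shores over a start 7.10% (16) against 14.1% (19) downstream. All start islands but that of Pcdhga11 are at C-type genes, and no downstream island is, so isoform class and position overlap here. The downstream islands include the one named after Pcdha7, and some begin close to a start, as at Pcdha12 (121 bp). In 15 genes with both kinds of region, the downstream level was higher in 10, lower in 4 and equal at Pcdhgb6, with a median difference of 4.79 points. This tally mixes islands with shores. Pcdhac1, Pcdhac2, Pcdhga11 and Pcdhgc3, all higher downstream, set an island against a downstream shore. Pcdhb17, Pcdhb20, Pcdhgb5 and Pcdhgb8, lower downstream except Pcdhb20, set a shore against a downstream island. Region class and position cannot be told apart in these genes. The widest gap was at Pcdha1 (9.76% over the start and 41.3% downstream), and the opposite order was widest at Pcdhb17 (30.8% and 3.91%). Shores that touch the right edge of an island were above it at 8 of 9 islands, and those at the left edge at 5 of 9. Shores are long, and a shore over a start reaches both sides of it, so these values do not resolve single promoters.

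**Figure D2:**
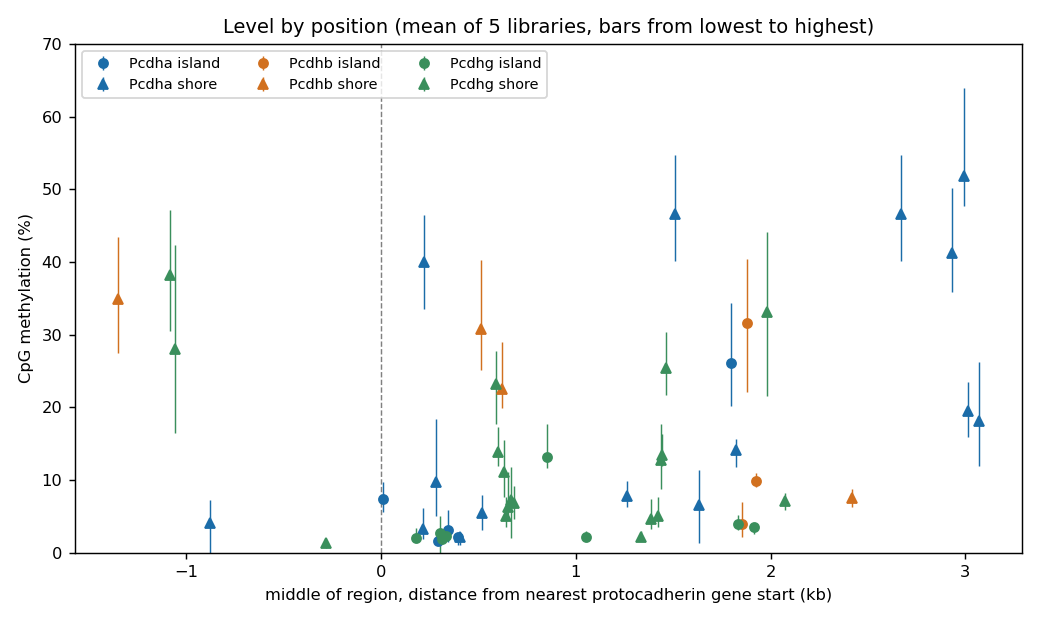
Mean CpG methylation of the 53 regions within 3000 bp of a protocadherin start (y axis, percent; bars run from the lowest to the highest library) against the distance of the region's middle from that start (x axis, kb). Of the 4 islands over a start Pcdhac2 (1.58%), Pcdhga11 (2.08%) and Pcdhgc3 (2.29%) lie near 0 and Pcdhac1 lies at 7.39%, and the highest point is the downstream Pcdha12 shore at 51.9%.

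High and low regions were largely the same in all libraries. Pearson's r over the 56 members was between 0.959 (female ESC and PGC) and 0.979 (female ESC and pESC), against 0.962 and 0.974 for the same pairs over all regions. Spearman's rho, which weighs the low regions equally, was between 0.899 (female ESC and PGC) and 0.963. The members share a chromosome stretch and, in part, CpG sites, so these are descriptions. Female ESC was the highest of the 5 libraries at 32 of 56 members (30.05% of all regions). PGC was lowest at 16, or 28.6%, where it was lowest at 33.5% of all regions. pESC and pESC-PGCLC were lowest at 14 each, or 25%, against 22.9% and 13.4% of all regions. Among the 17 members with a mean of at least 20%, female ESC was highest at 16 and PGC lowest at 11; over all 4191 regions of that level the shares were 78.1% and 63.2%.

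The pESC library was set beside that of female ESC; parental origin, line and library cannot be told apart in this pair. Protocadherin regions were mostly lower in pESC: 43 of 56 were lower, against 59.8% of all regions. The median difference was -1.93 points, against a median of -0.16 over all regions. A region is called here when the 2 libraries differ by at least 10 percentage points. By that rule 5 members were lower, where 2.88% of all regions were, and 0 were higher, where 0.683% were. Of the 17 members with a mean of at least 20% all were lower, as were 84.8% of all regions of that level. The medians were -8.77 and -5.34 points. Of the 17, 4 were called, against 17.4% of all regions of that level. The 5 members were the shore named after Pcdha7 (38.9% in pESC, 60% in female ESC), the downstream shores of Pcdha12 (47.7% and 63.9%), Pcdhga2 (32.0% and 44.1%) and Pcdha5 (1.39% and 11.4%), and the Pcdha3 island (23.5% and 34.4%). The shores among them have levels that a small number of counted cytosines can give, and their depth is unknown. Pcdha5 was just inside the threshold at -10.04 points and Pcdha8 just outside it at -9.75. With each library scaled to equal class means, 2 members were lower and 1 was higher.

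**Figure D3:**
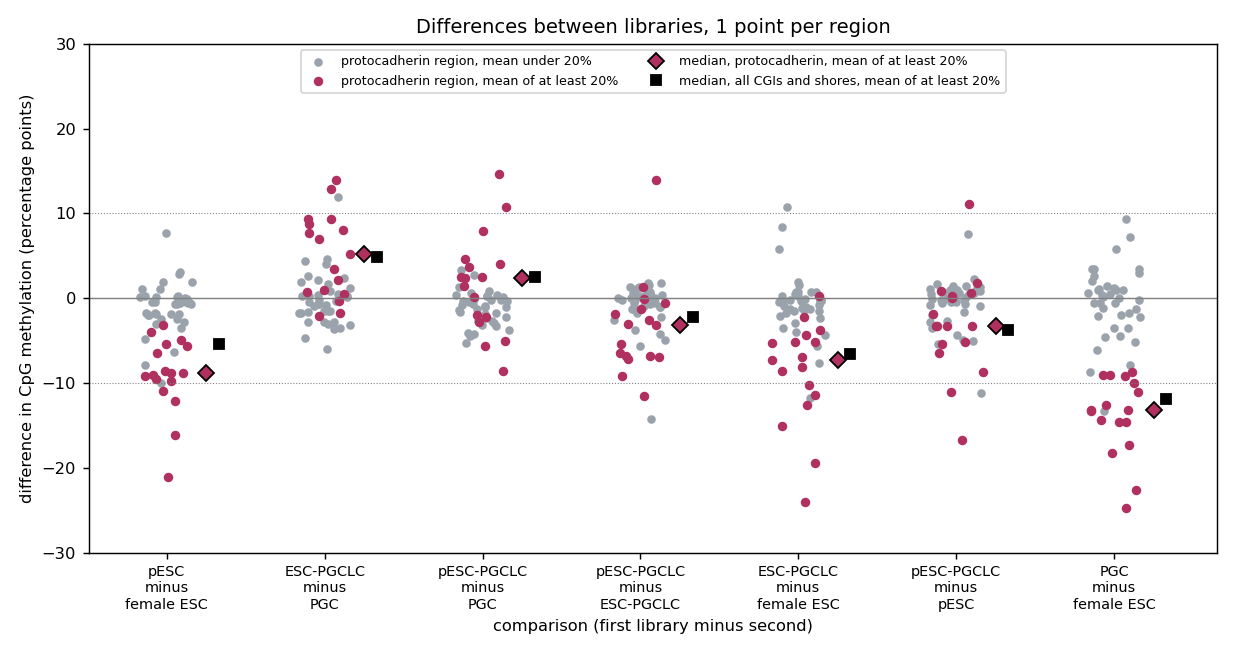
Differences in CpG methylation (y axis, percentage points) of the 56 protocadherin regions in 7 comparisons of 2 libraries (x axis); red points have a mean of at least 20%, grey points less. Diamonds mark the median of the 17 red points and squares the median of all 4191 islands and shores of that level; in PGC minus female ESC these are -13.19 and -11.87.

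PGC were set beside female ESC as the fetal germ cell state beside a stem cell. Methylated protocadherin regions were lower in PGC: each of the 17 members at 20% or more on average was below female ESC (median difference -13.19 points), 12 of them by at least 10 points. Across all regions of that level the median difference was -11.87 points, 6.85% were above female ESC and 61% were called lower. Over all 56 members 13 were called lower (9.2% of all regions) and 0 higher (0.618%), and with libraries scaled to equal class means 5 lower and 1 higher. The widest differences were at the shore named after Pcdha7 (35.3% in PGC, 60% in female ESC), the Pcdhga2 downstream shore (21.5% and 44.1%), the Pcdhb20 island (22.1% and 40.4%), a shore upstream of Pcdhga11 at 37753712 to 37755713 (25.1% and 42.4%) and the Pcdha2 shores (40.2% and 54.7%). Levels in PGC were far from 0 at these regions. At 20% or above were 15 members in PGC and 18 in female ESC, against 12.7% and 14.9% of all regions. These counts include the equal shores of Pcdha2 and the overlapping shores upstream of Pcdhga11. The Pcdha12 downstream shore kept 50.6% and the shore over the start of Pcdha8 33.6%.

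Regions with little methylation went the other way in PGC. Of the 18 members with a mean under 5%, 14 were higher in PGC than in female ESC, by a median of 1.00 points over the 18. Over all 21965 regions of that level the median was -0.06 points, and 44.4% were higher. PGC was the highest of the 5 libraries at 10 of the 18, against 14.2% of all regions of that level. The 10 include overlapping regions at Pcdha12 and the equal pair at Pcdhga12, so they are not 10 separate measurements. With equal levels counted once, 13 of 17 regions were higher in PGC than in female ESC. The island of Pcdha12 was at 5.84% in PGC and at most 3.85% elsewhere, that of Pcdhb17 at 6.93% and at most 4.04%, and the shore of Pcdhga5 (37694761 to 37696762) at 7.39% and at most 4.72%. Smaller differences of the same sign were seen at the islands of Pcdhga3 (2.96%, at most 2.54% elsewhere), Pcdhga11 (3.34%, at most 1.99%) and Pcdhga12 (2.93%, at most 2.21%). The exceptions were the island and start-covering shore of Pcdha5 and the islands of Pcdhgb8 and Pcdhgc3, at which female ESC was higher. With the CHH level of each region taken off, 13 of 18 were higher in PGC and the median was 0.89 points. The median member difference over all 56 regions, -2.04 points, mixes both kinds of region, and it became 0.02 with libraries scaled to equal class means and 0.11 in islands alone.

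**Figure D4:**
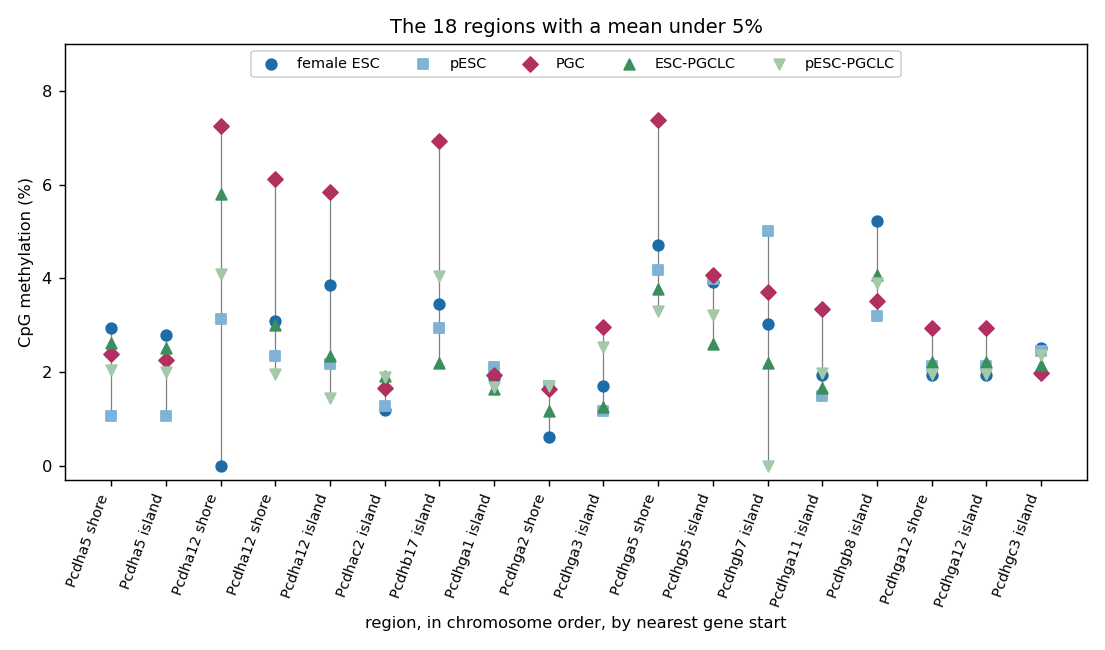
CpG methylation (y axis, percent) in each of the 5 libraries (symbols) at the 18 regions with a mean under 5% (x axis, chromosome order, named by the nearest gene start; lines join the lowest and highest library). The PGC diamond is the top symbol at 10 of the 18, for example 7.25% at the shore that covers the Pcdha12 start on its upstream side.

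ESC-PGCLC against PGC asked how near induced cells of the biparental line come to fetal germ cells. At 14 of the 17 methylated members ESC-PGCLC lay above PGC, as at 83.2% of all regions of that level. The median of the 17 was 5.23 points, against 4.84 for all regions of that level. Called members numbered 3 higher (2.47% of all regions) and 0 lower (0.485%). Of the 17 methylated members 2 were called higher, where 16.9% of all regions of that level were. The 3 were the Pcdhga2 downstream shore (35.5% in ESC-PGCLC, 21.5% in PGC), the shore over the start of Pcdha8 (46.4% and 33.6%) and the downstream shore of Pcdha3 at 36948159 to 36950160 (26.2% and 14.3%). Low regions were the reverse: at 13 of the 18 with a mean under 5% PGC lay above ESC-PGCLC, against 36.6% of all regions of that level. PGC minus ESC-PGCLC had a median of 1.09 points over the 18 and -0.16 over all regions of that level. The median over all 56 members was 0.25 points, and turned to -0.50 with libraries scaled to equal class means and to -0.51 in islands alone.

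pESC-PGCLC were closer to PGC at methylated regions. Of the 17, 11 were higher and 6 lower, where 73.7% of all regions of that level were higher. The median was 2.35 points, against 2.48 for all regions of that level. The 2 called members were both higher (0.945% of all regions; 0 lower, 0.385%): the shore named after Pcdha7 (50.0% and 35.3%) and the Pcdhga2 downstream shore (32.3% and 21.5%); the former lies 4337 bp from the Pcdha7 start. Below PGC lay the pair of shores upstream of Pcdhga11, at 30.5% against 36.1% and 16.5% against 25.1%. At 14 of the 18 low regions PGC lay above pESC-PGCLC, with a median difference of 0.92 points; over all regions of that level PGC lay above at 7728 of 21965, with a median of -0.17. Both comparisons with PGC and that of PGC with female ESC share the PGC library, so their order at low regions is not independent.

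After induction the parthenogenetic cells were again lower. In pESC-PGCLC 38 of 56 members were below ESC-PGCLC, against 51.2% of all regions (medians -0.63 and -0.02 points). Of the 17 methylated members 15 were, against 70.9% of all regions of that level (medians -3.16 and -2.25 points). Called members numbered 2 lower (0.938% of all regions), the downstream shore of Pcdha3 (11.9% and 26.2%) and the shore between Pcdhb15 and Pcdhb16 (27.5% and 39.1%), and 1 higher (0.453%), the shore named after Pcdha7 (50.0% and 36.0%). The 2 comparisons between lines share no library, although each induced library derives from the line beside it. In both, 31 of 56 members were lower in the parthenogenetic cells (31.9% of all regions) and 6 were higher (20.5%). Lower by at least 5 points in both were 9 members (2.52% of all regions), and 0 were higher (0.34%). Among members with a mean of at least 20%, that was 8 of 17, against 16.7% of all regions of that level. The 9 were the downstream shores of Pcdha1 and Pcdha5, both equal shores of Pcdha2, the Pcdha3 island, the Pcdha8 shore, the shore between Pcdhb15 and Pcdhb16, and both shores upstream of Pcdhga11. Thus 6 of them lie in Pcdha, 1 in Pcdhb and 2 in Pcdhg. The Pcdha2 shores share their levels and the Pcdhga11 shores cover nearly the same bases, so the 9 are not all separate measurements.

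Methylated members were lower after induction in the biparental line. ESC-PGCLC lay below female ESC at 16 of 17, as at 88.7% of all regions of that level. The median differences were -7.34 and -6.55 points. Of all 56, 7 were called lower (4% of all regions) and 1 higher (0.508%), or 3 lower and 2 higher with scaled libraries. The largest was the shore named after Pcdha7, from 60% to 36.0%, then the shore upstream of Pcdhga11 at 37753712 to 37755713, from 42.4% to 23.0%, and the downstream shore of Pcdha12, from 63.9% to 48.9%. The shore over the start of Pcdhb17 went from 40.3% to 27.7% and that over the start of Pcdha1 (36929567 to 36931567) from 18.5% to 6.74%. From pESC to pESC-PGCLC the median over the 17 was -3.25 points (all regions of that level, -3.74). Of the 17, 11 were lower and 6 higher, where 80.2% of all regions of that level were lower. Called were 3 lower (1.52% of all regions) and 1 higher (0.349%). The shores upstream of Pcdhga11 were lower here too, going from 33.3% to 16.5% and from 41.6% to 30.5%.

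With a threshold of 5 points more members were counted, and pESC-PGCLC against PGC then had more lower than higher. pESC was below female ESC at 17 members (9.45% of all regions) and above at 1 (1.96%). PGC was below female ESC at 22 (14.8%) and above at 3 (2.2%), the 3 being the shore of Pcdha12 on the upstream side of its start, the Pcdhga2 island and the Pcdhgb5 shore. ESC-PGCLC was above PGC at 10 (7.81%) and below at 1 (2.25%), the Pcdhga2 island. pESC-PGCLC was above PGC at 3 (4.84%) and below at 4 (1.85%). Those below include both shores upstream of Pcdhga11, which cover nearly the same bases, so they are not all separate measurements. The others, the islands of Pcdha3 (-5.02 points) and Pcdhga2 (-5.22), were just past the threshold. Against ESC-PGCLC, pESC-PGCLC was below at 10 (4.49%) and above at 1 (1.89%). From female ESC to ESC-PGCLC 16 were lower (11.3%) and 3 higher (1.59%), and from pESC to pESC-PGCLC 9 were lower (6.81%) and 2 higher (1.89%). The Pcdhgb5 shore was among the higher ones in both lines.

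A few regions separated germ cells from stem cells. In 4 members all 3 germ cell and germ cell-like libraries were at least 5 points below both stem cell libraries (1.56% of all regions). All 4 had a mean of at least 20%, so they are 4 of 17 such members, against 10% of all regions of that level. They were the shore over the start of Pcdhb17, the Pcdhb20 island and both shores upstream of Pcdhga11. The Pcdhga11 shores cover nearly the same bases, so the 4 are not all separate measurements. In 1 member they were at least 5 points above both (0.107%), the shore over the start of Pcdhgb5 (37730638 to 37732638), which was at 2.45% in female ESC, 1.97% in pESC, 11.8% in PGC, 10.9% in ESC-PGCLC and 9.55% in pESC-PGCLC. The Pcdhgb5 island that adjoins this shore showed no such split, with 2.60% to 4.07%. The rule for these 5 was set after values had been seen.

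Regions of related adhesion genes outside the clusters were mostly islands and had levels near those of islands at large. Of 26 listed non-clustered protocadherins and cadherins 21 had a region, 17 an island, and 20 of these 21 had a mean under 5%, near the 91.6% of all islands; the protocadherin members are mostly shores and are not matched to this list. Pcdh12, a protocadherin of blood vessel lining cells, was the exception, with a shore (chromosome 18, 38266910 to 38268910) at 49.9% in female ESC, 44.0% in pESC, 42.9% in PGC, 46.9% in ESC-PGCLC and 42.1% in pESC-PGCLC. No member of that list was called in any of the 7 comparisons. Of 20 listed genes for factors that act at protocadherin promoters 16 had a region, 14 of them an island, and 15 of the 16 had a mean under 5%, again near the share of all islands. Among them were Ctcf at 1.34%, the methyltransferase Dnmt3b at 1.49% and Smchd1, a repressor of the clusters, at 1.21%. Dnmt3l, which helps set new methylation, had a shore at 39.0% in female ESC, 33.7% in pESC, 23.7% in PGC, 24.9% in ESC-PGCLC and 30.3% in pESC-PGCLC, the only region of that list that was called, lower in PGC and in ESC-PGCLC than in female ESC.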

How the data were processed

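Libraries were 5, with 1 per group. Per the submitters' processing notes, Bismark 0.16.3 and Bowtie2 were used with the build mm10. No source used here gives the trimming, the coverage filter or how islands and shores were drawn. For each region and cytosine context the authors deposited its methylation as a fraction, printed here as percent. There are no read counts, so depth, counting error and intervals are unknown. Coordinates are as deposited; their counting base is not stated.

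Regions were taken as listed in all 5 libraries, and named from RefSeq coordinates (GRCm38.p6), where 58 protocadherin symbols matched. With 1 library per group no test was made: regions 10 percentage points apart were counted beside all 30910 regions (18 of the members are among 14214 islands, 38 among 16696 shores). Named regions follow a rule of highest and lowest means, largest differences and C-type genes; regions named for a pattern over the libraries or for an exception were chosen after values were seen. Members, lists and thresholds were chosen with earlier results of these data known. Genes of other lists took the longest island within 1000 bp of either end, or else the longest shore. Tables were made with pandas 2.3.3 and numpy 2.4.6, and the counting was tested on simulated levels. Alternatives are given in the closing section. Sequences are not printed.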

Additional observations from a re-analysis of the deposited data

Results flagged for a closer look

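At 2 shores the change on induction had opposite signs in the lines, by at least 10 points in each; with 1 library per group the difference was not tested. The downstream shore of Pcdha3 (36948159 to 36950160) was 10.8 points higher in ESC-PGCLC than in female ESC (26.2% and 15.4%), and changed by -11.2 points from pESC to pESC-PGCLC (23.1% and 11.9%). The shore named after Pcdha7 (36978148 to 36980148) changed by -24 points from female ESC to ESC-PGCLC (60% and 36.0%) and was 11.1 points higher in pESC-PGCLC than in pESC (50.0% and 38.9%). Both adjoin islands that were lower after induction in both lines: the Pcdha3 island went from 34.4% to 27.4% and from 23.5% to 20.2%, and the island named after Pcdha7 from 83.6% to 79.8% and from 80.4% to 78.5%. Levels of the shore named after Pcdha7 were exactly 60% in female ESC, 36% in ESC-PGCLC and 50% in pESC-PGCLC. A small number of counted cytosines can give such values. The same holds for the downstream shore of Pcdha3, and for the downstream shores of Pcdhga2 (32% in pESC), Pcdha12 and Pcdha5 named above. The reads behind each level are unknown, and their part in these changes was not tested.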

How the results depend on the processing

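Each value rests on 1 library per group and an unknown number of reads, so neither replicate nor counting error can be given. Alternatives were another threshold, islands or shores alone, regions at 0 in a library or under 300 bp left out, the CHH level taken off, regions listed in the pair compared, and libraries scaled to equal class means. Counting equal overlapping regions once and leaving out the 3 regions over 3000 bp from a start were chosen after seeing the data. Of the counts and level medians under them, 134 stayed within the tolerance (1.5 times for counts, 1 point for medians) and 60 did not.

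With a threshold of 5 points the counts lower and higher became 17 and 1 (pESC against female ESC), 1 and 10 (ESC-PGCLC against PGC), 16 and 3 (ESC-PGCLC against female ESC), 9 and 2 (pESC-PGCLC against pESC) and 22 and 3 (PGC against female ESC), and the lower counts 4 (pESC-PGCLC against PGC) and 10 (pESC-PGCLC against ESC-PGCLC). With 25 points every count was 0, where between 0.0226% and 0.56% of all regions were called.

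In islands alone the lower counts of pESC, ESC-PGCLC and PGC against female ESC were 1 each and all others 0. The median difference turned to -0.511 points for ESC-PGCLC minus PGC and to 0.1054 for PGC minus female ESC. With scaled libraries these medians were -0.4967 and 0.02259. The counts lower and higher were then 2 and 1 (pESC), 3 and 2 (ESC-PGCLC) and 5 and 1 (PGC) against female ESC, and 1 lower for pESC-PGCLC against PGC. Without the 3 distant regions the higher counts of pESC-PGCLC were 1 against PGC, 0 against ESC-PGCLC and 0 against pESC. In each case the region lost was the shore named after Pcdha7.

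Level medians in islands alone were 5.257% (Pcdha), 9.936% (Pcdhb), 2.286% (Pcdhg), 2.286% (C-type), 14.64% (alternate Pcdha), 2.079% (Pcdhga) and 3.557% (Pcdhgb). In shores alone they were 16.14% (Pcdha), 26.67% (Pcdhb), 9.248% (Pcdhg) and 19.44% (Pcdhga). With equal regions counted once Pcdha had 9.759% and Pcdhga 8.939%, and without the distant regions Pcdha had 8.761%, alternate Pcdha genes 13.96% and Pcdhga 8.939%. The cause of the other changes was not tested.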

Other observations

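A pair of shores upstream of Pcdhga11 is offset by 25 bp at the start and 26 bp at the end, so they cover nearly the same bases, yet their levels differed by 4.84 points in female ESC, 8.29 in pESC, 11.1 in PGC, 12.9 in ESC-PGCLC and 13.95 in pESC-PGCLC. At Pcdha2 a pair of shores with a far larger offset had equal levels in every library.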
